A study of Mus musculus with 4 samples.

Results

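The neurons described here were 64 cells of the embryonic day 18 mouse brain with the transcripts of mature glutamatergic neurons together with Fezf2 or Crym, called Fezf2/Crym mature cells below. They were selected on Illumina UMI counts, where a UMI is one tagged mRNA molecule. A cell had to hold at least 3 UMIs of Neurod2 and Neurod6 together, at least 5 of Nefl, Nefm, Mef2c and Sla, and at least 2 of Fezf2 and Crym. It could hold at most 1 UMI of Gad1, Gad2, Dlx1, Dlx5 and Dlx6os1, and at most 4 of the 8 cell cycle genes Top2a, Mki67, Ube2c, Birc5, Nusap1, Cdk1, Rrm2 and 2810417H13Rik. Of 1121 cells with at least 1400 detected genes (1141 deposited barcodes), 64 met the rule, which was 5.71%. They were 13 of 186 cells (6.99%) of the smaller aliquot and 51 of 935 (5.45%) of the larger one.

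The tissue was the combined cortex, hippocampus and ventricular zone of 1 untreated C57BL/6 mouse, with no transgene and no treatment arm. One Chromium emulsion was divided into 2 aliquots, named for their 190 and 951 cells, and each was read on Illumina for gene counts and on Nanopore for full-length isoforms. The 2 aliquots hold different cells of the same animal, so every p-value below measures the spread between aliquots, which is technical, and not the spread between animals. Both aliquots entered each comparison as sums of UMIs over the cells of a class.

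Fezf2 encodes a zinc finger transcription factor that directs neurons of the deep cortical layers toward projections below the cortex, and Bcl11b, Sox5 and Tbr1 are known partners in sorting deep-layer fates. Neurons of layer 5 send axons to the brainstem and spinal cord, those of layer 6 to the thalamus, and callosal neurons to the opposite hemisphere. Crym encodes mu-crystallin, a cytosolic protein that binds thyroid hormone and marks subsets of cortical and hippocampal projection neurons.

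The class of comparison closest to these cells was 156 other mature glutamatergic cells (26 and 130 in the 190 and 951 cell aliquots), which met the same rule except for holding at most 1 UMI of Fezf2 and Crym. A further class of 194 newborn glutamatergic cells (27 and 167) had at least 3 UMIs of Neurod2 and Neurod6, at most 1 of Nefl, Nefm, Mef2c and Sla, and at most 1 of Eomes. Reference classes were 223 GABAergic cells (38 and 185) and 31 radial glia (6 and 25). The Fezf2/Crym mature cells summed to 188170 and 634642 Illumina UMIs in the 190 and 951 cell aliquots, with a lowest, median and highest cell of 3467, 11656 and 30572 UMIs. They were deeper than the other classes, whose median cells held 9982 UMIs in other mature, 7591.5 in newborn, 5435 in GABAergic and 8664 in radial glia cells. Their Nanopore sums were 103880 and 373282 UMIs. Scrublet called none of the 64 cells a doublet, and it called 3 and 4 cells in the whole aliquots. The files of both aliquots share 13 barcodes, which 2 of the 64 cells and 3 of the other mature cells carry.

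The values that chose the cells are given as a description. Fezf2 (chr14:12342094-12348189, minus strand, GRCm38) held 78 and 249 UMIs in the 190 and 951 cell aliquots and was seen in 60 of the 64 cells, with a median of 3 and a highest count of 19. Crym (chr7:120186380-120202111, minus strand) held 47 and 155 UMIs in 30 of the 64 cells, with a highest count of 24. Most cells were thus chosen by Fezf2, and 34 had Fezf2 without Crym, 26 had both and 4 had Crym without Fezf2. Crym was found in 3 of 13 cells of the 190 cell aliquot and in 27 of 51 cells of the 951 cell aliquot, although its summed level was alike at 250 and 244 CPM, where CPM is the count per 1000000 UMIs of the class sum. Mef2c, a transcription factor of maturing neurons, was present in all 64 cells with 923 UMIs, while the neurofilament genes Nefl and Nefm were present in 29 and 43 cells. The maturity criterion was therefore carried mainly by Mef2c.

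Among all mature cells, 124 held no UMI of Fezf2 or Crym and 32 held 1, just outside the threshold, while 20 held 2, just inside it, 4 held 3 and 23 held 10 or more. A cut of 1 UMI would have taken 96 cells and a cut of 3 would have taken 44. Neither gene was restricted to these cells. Fezf2 was seen in 83 of 194 newborn cells and Crym in 42 of them. The Crym level of newborn cells was 219 and 218 CPM beside 250 and 244 CPM in the Fezf2/Crym mature cells.

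**Figure D1:**
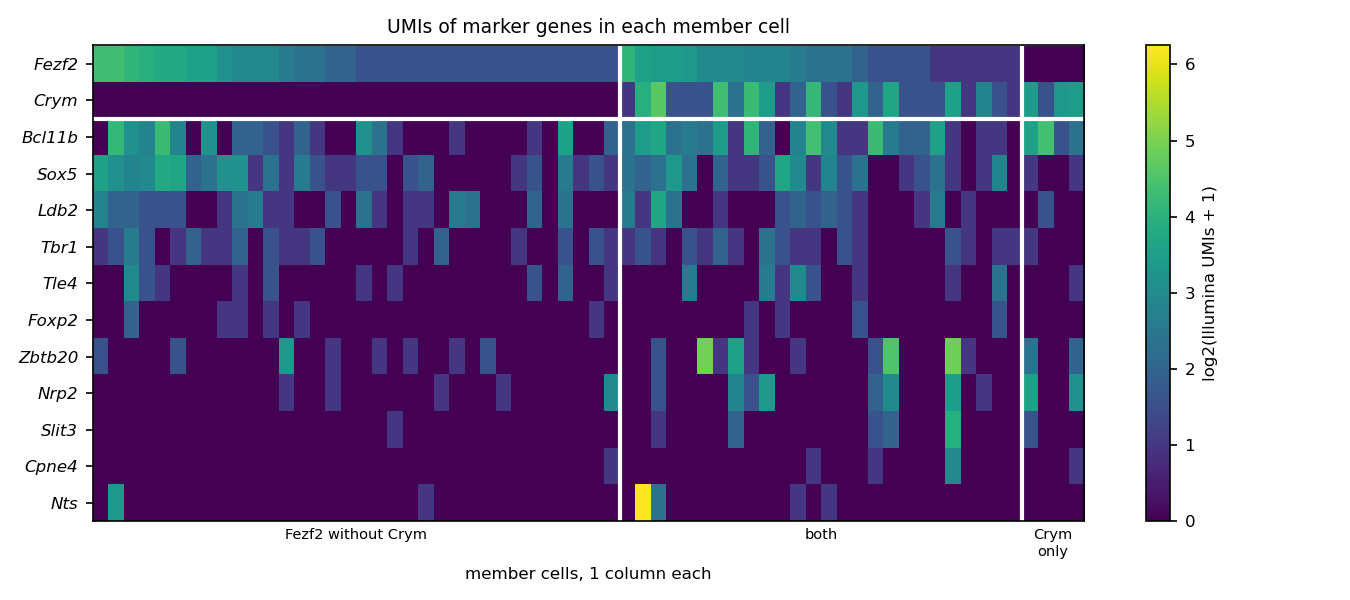
UMIs of 13 genes (rows, colour as log2 of UMIs plus 1) in each of the 64 Fezf2/Crym mature cells (columns), set apart by white lines into cells with Fezf2 alone, both genes or Crym alone. Fezf2 or Crym fill every column by the rule, Bcl11b is seen in 46 columns, and the Nts signal lies mainly in 1 cell.

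The working name of these cells lists Nrp2, Slit3, Cpne4 and Nts beside Fezf2 and Crym, and the data bore this out in part of the cells only. Of the 64 cells, 42 had no UMI of these 4 genes, 14 had a UMI of 1 of them, 5 of 2 and 3 of 3. Nrp2, a semaphorin receptor, held 15 and 55 UMIs in 15 cells, Slit3, a guidance ligand, held 2 and 24, and Cpne4, a calcium-dependent membrane-binding copine, held 0 and 11. One cell of the 951 cell aliquot held 14 of the Slit3 and 7 of the Cpne4 UMIs. Nts, the neurotensin precursor, held 0 UMIs in the 190 cell aliquot and 91 in the 951 cell aliquot, of which 75 came from 1 cell. The levels of Nrp2 were 79.7 and 86.7 CPM here, 9.90 and 67.0 CPM in other mature cells, and 331 and 303 CPM in newborn cells. Newborn cells held the highest Nrp2 in both aliquots, and the mature classes were close in the 951 cell aliquot. Nrp2 and Slit3 were the only ones of the 4 abundant enough to be tested against other mature cells, and neither was called (edgeR adjusted p = 1 and 0.078). Slit3 was called higher with the aliquot as a block (edgeR adjusted p = 0.0011), where 14 of its 26 UMIs here were from 1 cell.

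Detection was compared after thinning each cell to 5000 UMIs, which left 60 Fezf2/Crym mature and 138 other mature cells. The intervals are exact Clopper-Pearson 95% intervals, which cover counting error only. Bcl11b had a UMI in 58.3% (44.9 to 70.9) of Fezf2/Crym mature cells and in 17.4% (11.5 to 24.8) of other mature cells, and in 3.57% of radial glia, a type that should lack it, as the level of free RNA. Sox5 had a UMI in 61.7% (48.2 to 73.9) against 18.8% (12.7 to 26.4), and Tbr1 in 36.7% (24.6 to 50.1) of these cells against 36 of 138 other mature cells (26.1%). The intervals of Bcl11b and Sox5 did not overlap between the mature classes, whereas the share of Tbr1 in other mature cells lay within its interval here. Nrp2 was seen in 11.7% (4.82 to 22.6) of these cells and in 11.6% of GABAergic cells, so its share was about equal to that of a type outside the glutamatergic lineage. At full depth, before thinning, Bcl11b was seen in 46 of the 64 cells, Sox5 in 50 and Tbr1 in 37. Bcl11b and Tbr1 were seen together in 27 cells.

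The main comparison asked which genes outside the rule separated the Fezf2/Crym mature cells from other mature glutamatergic cells. The deep-layer genes Bcl11b, Sox5 and Rprm were higher, and the upper-layer gene Cux1, the guidance receptors Plxna4 and Epha3 and the adhesion gene Flrt3 were lower. Of 5339 genes tested by the quasi-likelihood method of edgeR, 22 (0.412%) were higher and 18 (0.337%) were lower at a Benjamini-Hochberg adjusted p of 0.05, and 290 had an unadjusted p under 0.05. All 40 moved the same way in both aliquots. With the aliquot as a block, 68 genes (1.27%) were higher and 55 (1.03%) lower, and the 40 were among them. After thinning every cell to 5000 UMIs, 3 were higher and 5 lower, and these were Bcl11b, Rprm and Sox5, and Plxna4, Flrt3, Epha3, Gpm6a and Ttc28. The median log2 fold change over all tested genes was -0.01, and each fold change below is given as log2 with its standard error over the 2 aliquots of each class.

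Among genes of the deep layers, Bcl11b (chr12:107910403-108003602, minus strand), the transcription factor CTIP2 of subcerebral projection neurons, stood at 367 and 347 CPM in the 190 and 951 cell aliquots against 106 and 62.5 CPM in other mature cells. Both values lay above both values of the other class, with a log2 fold change of 2.16 ± 0.25 (edgeR adjusted p = 4.1e-05). Sox5, which controls the sequential generation of deep-layer neurons, stood at 276 and 227 CPM against 89.1 and 57.2 CPM, a log2 fold change of 1.85 ± 0.29 (edgeR adjusted p = 0.0012). The groups did not overlap. For this gene, Bcl11b and those below, such separation of 2 values from 2 describes called genes and adds no evidence to the test. Rprm, a cell cycle inhibitor used as a layer 6 marker, stood at 223 and 353 CPM against 66.0 and 76.1 CPM, a log2 fold change of 2.02 ± 0.26 (edgeR adjusted p = 0.0001).

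Of the subcerebral layer 5 list, all 8 genes were tested, 1 was higher (Bcl11b) and none lower, where 0.412% of all genes were higher. All 8 fold changes were positive with a median of 1.42 beside -0.01 over all genes. With the block, S100a10 and Tox were higher as well. Of the 13 genes of the corticothalamic layer 6 and subplate list, 5 were tested, and Sox5 and Rprm were higher, with a median of 1.36. Of the other 3 tested, Tbr1, which specifies layer 6, stood at 47.8 and 85.1 CPM against 69.3 and 54.2 CPM and overlapped between the classes (log2 fold change 0.30 ± 0.40, edgeR adjusted p = 1), and Foxp2 and Nr4a2 were not called. Foxp2 had a UMI in 15.0% of thinned Fezf2/Crym mature cells and 2.90% of other mature cells, and Tle4 in 18.3% and 5.80%.

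**Figure D2:**
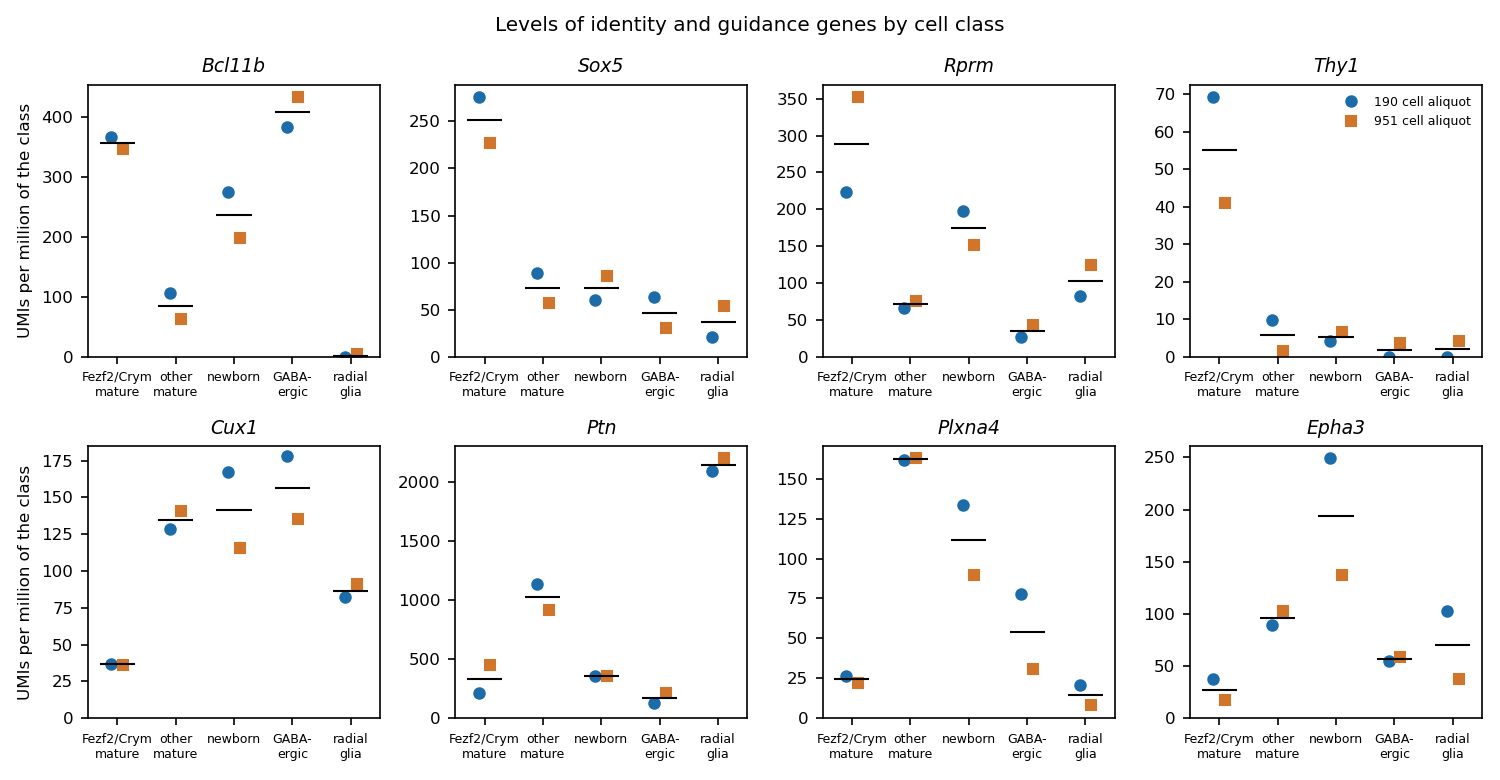
Level of 8 genes outside the rule (CPM) in the 5 classes, with 1 point for each aliquot and a line at their mean. The Fezf2/Crym mature cells lie above other mature cells in both aliquots for Bcl11b, Sox5, Rprm and Thy1 and below them for Cux1, Ptn, Plxna4 and Epha3.

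Of the callosal and upper-layer list, Cux1 and Ptn fell. Cux1, a homeodomain factor of the upper layers, stood at 37.2 and 36.2 CPM against 129 and 141 CPM in other mature cells. Both values of the Fezf2/Crym mature cells were below those of the other class, with a log2 fold change of -1.91 ± 0.29 (edgeR adjusted p = 0.00089). Ptn, the secreted growth factor pleiotrophin, stood at 213 and 455 CPM against 1136 and 919 CPM, with a log2 fold change of -1.58 ± 0.30 (edgeR adjusted p = 0.021). Of 12 genes of the list, 10 were tested, and these 2 were lower and none higher, with a median of -0.96. With the aliquot as a block 7 of the 10 were lower, with Cux2, Pou3f2, Pou3f3, Lhx2 and Mdga1 added.

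Of the axon guidance receptors, Plxna4, Epha3 and Robo2 were lower. Plxna4 (chr6:32144268-32588192, minus strand), a plexin that relays class 3 and class 6 semaphorin signals, had the steepest fall, at 26.6 and 22.1 CPM against 162 and 163 CPM, a log2 fold change of -2.81 ± 0.36 (edgeR adjusted p = 0.0001). The 2 aliquots were close to each other in both classes, and the classes did not overlap. Epha3, an ephrin-A receptor, stood at 37.2 and 17.3 CPM against 89.1 and 103 CPM, a log2 fold change of -2.13 ± 0.40 (edgeR adjusted p = 0.0061), which was -1.06 without the 951 cell aliquot. Robo2, a Slit receptor, stood at 47.8 and 88.2 CPM against 178 and 182 CPM, a log2 fold change of -1.28 ± 0.27 (edgeR adjusted p = 0.018). The 16 tested receptors of 30 had a median of -0.08, with these 3 lower and none higher, beside 0.337% lower over all genes. Of 33 guidance ligands 13 were tested, and none was called (median -0.20). With the block, Ephb1 of the receptors and Slit3 of the ligands were higher and the ligand Efnb2 lower.

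Few cell adhesion genes were called, and those went in both directions. Flrt3, a membrane protein that binds Unc5 receptors and teneurins, held 1 and 14 UMIs, or 5.31 and 22.1 CPM, against 122 and 112 CPM, a log2 fold change of -2.71 ± 0.49 (edgeR adjusted p = 0.0087). Cntn2, an axonal immunoglobulin adhesion protein, stood at 74.4 and 156 CPM against 274 and 368 CPM, a log2 fold change of -1.39 ± 0.29 (edgeR adjusted p = 0.022). Pcdh17, a protocadherin, stood at 79.7 and 56.7 CPM against 26.4 and 17.3 CPM, a log2 fold change of 1.68 ± 0.40 (edgeR adjusted p = 0.047). Of 43 genes in the list 23 were tested, 1 was higher and 2 lower, and the median was 0.15. Over all genes 0.412% were higher and 0.337% lower. With the block, Cdh13 and Opcml were higher and Tenm3 lower as well.

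Thy1, a surface glycoprotein of projection neurons, had the largest positive fold change of the genes called in this comparison, at 69.1 and 41.0 CPM against 9.90 and 1.51 CPM, with a log2 fold change of 3.73 ± 0.90 (edgeR adjusted p = 0.047). It fell on few molecules, 13 and 26 UMIs here, and the value was 2.01 without the 951 cell aliquot. Elmo1, which activates Rac in cell movement, stood at 85.0 and 75.6 CPM against 13.2 and 15.1 CPM, a log2 fold change of 2.39 ± 0.39 (edgeR adjusted p = 0.0015). Plcb1, a phospholipase C downstream of G protein-coupled receptors, stood at 85.0 and 77.2 CPM against 16.5 and 19.6 CPM, a log2 fold change of 2.05 ± 0.34 (edgeR adjusted p = 0.0016). The values of these 3 genes did not overlap between the classes. Further higher genes were B3gat1, which makes the HNK-1 carbohydrate epitope, the phosphate exporter Xpr1, the postsynaptic scaffold Dlgap1, the sodium pump subunit Atp1b1, the endophilin Sh3gl2 and the sialyltransferase St6galnac5, with log2 fold changes from 1.49 to 2.05. Others among the 22 were Neto2, Ndrg2, Mmd, Lingo1, Ssbp2, Ndn, Sez6 and Gm17750.

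Because Crym binds thyroid hormone, 14 genes of thyroid hormone handling were examined, of which 4 were tested. None of the 4 was called, and their median log2 fold change was 0.03. Thra, a thyroid hormone receptor and the most abundant of them, differed by 0.12 ± 0.21.

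Of the synapse, channel and cytoskeleton lists, Thy1 was called between the mature classes, where 0.412% of all genes were higher and 0.337% lower. Of 23 tested genes of synaptic vesicles and release none was called (median 0.02), of 16 voltage-gated channel genes none (median 0.05), of 13 copine and calcium sensor genes none (median 0.79), of 4 glutamate receptor genes none (median 0.35) and of 6 neuropeptide genes none (median 1.18). Of 20 tested cytoskeleton and axon growth genes Thy1 alone was higher (median 0.21), to which the block added Ina and Gap43. With the block, Snap25, Grin2b and Npy were among the higher genes and Syt4, Slc17a6, Cacng2 and Kcnk2 among the lower.

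Immediate early and dissociation-response genes had a lower summed level in the Fezf2/Crym mature cells. It was 616 and 603 CPM against 1568 and 1026 CPM in other mature cells, and 1482 and 1126 CPM in newborn cells. Ier2 (log2 fold change -1.71 ± 0.28, edgeR adjusted p = 0.0016) and Jun (-1.10 ± 0.24, edgeR adjusted p = 0.024) were called lower, where 0.337% of all genes were. All 11 tested fold changes were negative, with a median of -1.17 beside -0.01 over all genes. The part of tissue dissociation in the other differences was not tested. Others among the 18 lower genes were Hs6st2, Tcf12, Frmd4a, Gpm6a, Ttc28, Eif1b, Limch1 and Abracl.

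**Figure D3:**
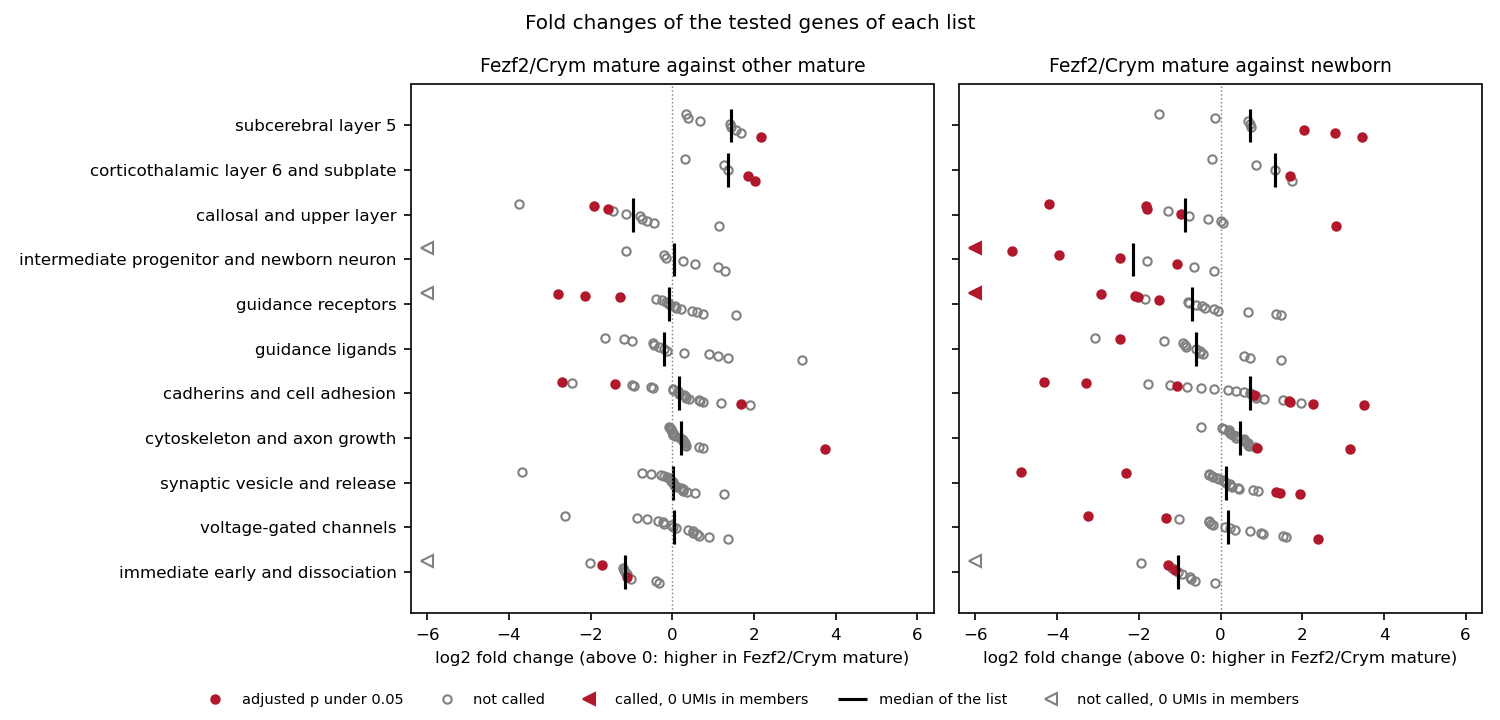
Log2 fold changes of the tested genes of each list in the Fezf2/Crym mature cells against other mature (left) and newborn (right) glutamatergic cells, with 1 point for each gene, filled where the gene was called and placed at the edge where these cells held 0 UMIs. The subcerebral layer 5 points lie above 0 on the left, most callosal points lie below 0 on both sides, and all immediate early points lie below 0 on both.

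Markers of other cell types were low. The GABAergic interneuron list summed to 95.7 and 104 CPM here, 46.2 and 45.2 CPM in other mature cells, and 2280 and 1874 CPM in GABAergic cells. Its most abundant gene here was Npy, the neuropeptide Y precursor, with 11 and 57 UMIs, while the vesicular GABA transporter Slc32a1 had a UMI in 0 of the 64 cells, which allows a share of cells with a UMI of up to 5.60% (exact 95% interval). The rule had itself allowed at most 1 UMI of Gad1, Gad2, Dlx1, Dlx5 and Dlx6os1, so a low GABAergic content was largely set by the selection. Npy was called higher than in other mature cells with the aliquot as a block only. The radial glia and astroglia list summed to 914 and 589 CPM, led by Dbi, against 799 and 699 CPM in other mature cells and 21323 and 30096 CPM in radial glia. None of the 11 tested members of that list was called, and with the aliquot as a block Mt3 was higher and Ptprz1 lower. Hemoglobin genes, which neurons do not make, summed to 845 and 611 CPM with the other erythroid markers against 730 and 605 CPM in other mature cells, led by Hbb-bs, as a measure of free RNA in the droplets. The oligodendrocyte list summed to 10.6 and 4.7 CPM (most abundant Olig1), the microglia list to 5.31 and 9.45 CPM (C1qb), the endothelium list to 0 and 1.6 CPM (Pecam1) and the choroid plexus list to 0 in both. The Cajal-Retzius list summed to 26.6 and 64.6 CPM, led by Calb2, with Trp73 and Lhx1 in 0 of the 64 cells, and the striatal-type list to 31.9 and 41.0 CPM, led by Ppp1r1b. The part of these markers in the differences above was not tested.

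Hippocampal genes were examined because the tissue included hippocampus. Of 9 genes, 3 could be tested against other mature cells and none was called (median 0.84). At full depth Prox1 and Wfs1 each had 1 UMI in 3 of the 64 cells, Lef1 in 2 and Fibcd1 in 0. Prox1 had a UMI in 34 of 223 GABAergic cells. Zbtb20, a transcription factor of hippocampal neurons and of progenitors, was called higher than in other mature cells only with the aliquot as a block, and 4 cells held 29, 28, 22 and 11 of its UMIs.

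Within the 64 cells, those with Fezf2 alone (10 and 24 cells) and those with Fezf2 and Crym (2 and 24 cells) differed in several genes, which is given as levels with no test, since the split uses the rule genes and the 190 cell aliquot holds 2 cells with both. Pou3f2, an upper-layer POU factor, stood at 379 and 297 CPM in the Fezf2-only cells and at 67.9 and 122 CPM in the cells with both, and it was seen in 30 of 34 and 8 of 26 cells. Bcl11b was lower in the Fezf2-only cells, with 264 and 264 CPM against 588 and 370 CPM, and was seen in 19 of 34 and 23 of 26 cells. Most Fezf2-only cells with 2 Fezf2 UMIs, the fewest the rule allowed for them, had no Bcl11b UMI. Of those with more Fezf2 UMIs, most had Bcl11b, so the difference lay partly in cells at the cut.

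Pooled over the aliquots, the remaining label markers had most of their UMIs in the cells with both genes, but for Slit3, Cpne4 and Nts mainly in 1 cell. Nrp2 stood at 16.5 and 32.6 CPM in the Fezf2-only cells and at 45.3 and 116 CPM in cells with both. Slit3 held 1 UMI against 23 (14 of them in 1 cell), and Cpne4 held 1 against 9 (7 of them in 1 cell). Nts held 10 against 81, of which 75 were in 1 cell, so its direction rests on that cell. Zbtb20 stood at 49.4 and 47.1 CPM against 45.3 and 294 CPM, the last from 96 UMIs of which 4 cells held 29, 28, 22 and 11, and Neurod1, a factor of newborn neurons, at 8.24 and 43.5 CPM against 45.3 and 156 CPM. Of these values, those of the 951 cell aliquot in cells with both genes were the highest for Nrp2, Zbtb20 and Neurod1. Cells with both genes were also deeper, at 14272.5 UMIs per cell against 11690.1. The 4 cells with Crym alone held 37 Bcl11b and 19 Nrp2 UMIs. Their Nrp2 level was 488 and 252 CPM, from 1 cell in each aliquot, above that of the other cells in both aliquots.

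Against newborn glutamatergic cells, the class with few UMIs of the maturity genes, the Fezf2/Crym mature cells held more of the dynein gene Dync1i1, the cadherin Cdh13 and the sodium channel Scn2a1. They held less of the guidance receptors Unc5d and Nrp1 and of the transcription factors Pax6 and Zbtb20. Of the 5339 genes, 96 (1.80%) were higher and 91 (1.70%) lower by the same edgeR test and threshold, and 728 had an unadjusted p under 0.05. With the aliquot as a block 243 (4.55%) were higher and 226 (4.23%) lower, and all 187 were among them. Thinned to 5000 UMIs, 29 were higher and 33 lower. The class was defined by low Nefl, Nefm, Mef2c and Sla, so a difference in maturity is built into this comparison, and only genes outside the rules were tested.

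Dync1i1, the neuronal intermediate chain of cytoplasmic dynein, stood at 244 and 191 CPM in the Fezf2/Crym mature cells against 4.30 and 19.5 CPM in newborn cells, a log2 fold change of 3.70 ± 0.33 (edgeR adjusted p = 3.8e-07). Cdh13, a cadherin without a transmembrane domain, stood at 143 and 172 CPM against 4.30 and 16.6 CPM, a log2 fold change of 3.52 ± 0.38 (edgeR adjusted p = 3.8e-06). Sybu, which links kinesin to axonal cargo, stood at 106 and 74.1 CPM against 8.59 and 6.51 CPM, a log2 fold change of 3.66 ± 0.57 (edgeR adjusted p = 0.00032). In all 3 genes the lower value of these cells was above the higher value of newborn cells. Gucy1a3, a subunit of the nitric oxide receptor, had the largest rise at 4.96 ± 0.80 (edgeR adjusted p = 0.015), and its 2 levels here, 229 and 93.0 CPM, were far apart.

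Of the 8 subcerebral layer 5 genes, Ldb2, S100a10 and Tox were higher and none lower than in newborn cells (median 0.73). Bcl11b was not called, with 275 and 198 CPM in newborn cells and a log2 fold change of 0.68 (edgeR adjusted p = 0.14). It was called with the aliquot as a block (edgeR adjusted p = 0.00055). Sox5 was higher by 1.70 ± 0.28 (edgeR adjusted p = 0.00065), the 1 called gene of the 5 tested of the layer 6 list (median 1.33), to which the block added Rprm. Among callosal and upper-layer genes Rorb, a nuclear receptor of layer 4, was higher and Cux1, Cux2, Pou3f2 and Lhx2 were lower (10 tested, median -0.86), and the block added Pou3f3 and Mdga1 as lower. For Cux2 the cells held 0 and 1 UMIs against 5 and 40.

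Of 8 tested genes of intermediate progenitors and newborn neurons 5 fell and none rose (median -2.14). Unc5d, a netrin receptor of migrating neurons, had 0 UMIs in the Fezf2/Crym mature cells and 24 and 96 in newborn cells, which puts it at least 20.4-fold lower against a floor of 3 counts over the group. Mfap4 held 1 and 1 UMIs against 30 and 104. Sema3c, a secreted semaphorin, stood at 15.9 and 28.4 CPM against 138 and 147 CPM (log2 fold change -2.47 ± 0.35, edgeR adjusted p = 0.00011), and Sstr2, a somatostatin receptor, and Sox11, a factor of immature neurons, were the other lower members. Neurod1 was lower with the block only. Pax6, a progenitor factor, fell by 2.96 ± 0.48 on the log2 scale (edgeR adjusted p = 0.00041), and Zbtb20 stood at 63.8 and 176 CPM against 997 and 1061 CPM, a log2 fold change of -2.91 ± 0.33 (edgeR adjusted p = 0.0003).

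Of 16 tested guidance receptors 5 fell and none rose (median -0.69). They were the neuropilin Nrp1, at 213 and 265 CPM against 726 and 704 CPM (log2 fold change -1.51 ± 0.21, edgeR adjusted p = 9.2e-05), Plxna4, Unc5d, Epha3 and Epha4. Plxna4 and Epha3 were thus lower than in both glutamatergic classes, which share the Fezf2/Crym mature cells as the other side of the comparison. Epha4 stood at 74.4 and 117 CPM against 438 and 408 CPM (log2 fold change -2.01 ± 0.29, edgeR adjusted p = 0.0003). With the block, Epha7 and Ephb1 were higher, and Plxna2 and Robo2 were lower as well. Of 13 tested ligands Sema3c alone was called, lower, and with the block Rgma was higher and Slit2 lower as well.

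Genes of excitability and adhesion were called in both directions. Scn2a1, a sodium channel of developing axons, stood at 106 and 106 CPM against 30.1 and 18.1 CPM (log2 fold change 2.40 ± 0.39, edgeR adjusted p = 0.00041), while Cacng2 and the potassium channel Kcnk2 were lower (16 channel genes tested, median 0.18), and the block added Cacna1a and Cacna1e as higher. Snap25, Syt5 and Cplx1 of the release machinery were higher, and Syn2 and the vesicular glutamate transporter Slc17a6 lower (23 tested, median 0.12), and the block added Syt1 as higher. Slc17a6 held 0 and 1 UMIs here and 11 and 55 in newborn cells. The NMDA receptor subunit Grin2b was higher by 1.12 ± 0.23 (edgeR adjusted p = 0.0045), and the calcium signalling genes Camk2b and Camkv were higher. With the block, Calm2 was higher and Gria2 and Calb2 lower as well. Among adhesion genes Cdh13, Cdh2, Ntm, Tenm2 and Tenm3 were higher and Cdh4, Cntn2 and Negr1 lower (23 tested, median 0.72), and with the block 11 were higher and 5 lower. Of 20 cytoskeleton genes 19 had a positive fold change, with a median of 0.48 beside -0.01 over all genes. Thy1 and Tubb2a were called higher, where 1.80% of all genes were. With the block 8 were higher, where 4.55% of all genes were, with Ina, Mapt, Map1b, Stmn3, Stmn4 and Gap43 added. Tubb2a shares much of its sequence with Tubb2b, so its count is less certain. Of the 11 tested immediate early and dissociation genes Fos and Jun were lower (median -1.05), and 6 with the block. Against other mature cells Fos, Hspa1a and Btg2 were lower with the block only. None of the 4 tested genes of thyroid hormone handling was called, and Thra was called higher with the block only. Among markers of other cell types, Npy stood at 58.5 and 89.8 CPM against 8.59 and 10.8 CPM, a log2 fold change of 2.95 ± 0.63 (edgeR adjusted p = 0.030). Ptprz1, a receptor phosphatase of the radial glia list, stood at 186 and 184 CPM against 47.3 and 94.0 CPM, a log2 fold change of 1.29 ± 0.27 (edgeR adjusted p = 0.0058). With the block, Mt3 of that list was higher and Vim and Sox2 lower, and Chga of the neuropeptide list was lower. The part of these markers in the differences was not tested.

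Isoforms were read from the Nanopore UMIs of the same barcodes, with 226 genes tested for a shift in the shares of their isoforms. Between the Fezf2/Crym mature and other mature glutamatergic cells, edgeR's diffSpliceDGE called 0 genes (0%), with 10 at an unadjusted p under 0.05, and 0 with the block, with Simes adjustment or without a filter on low counts. Against newborn cells it called 3 genes (1.33%), Myl6, Pkm and Srsf3, 10 (4.42%) with the block and 0 without a filter on low counts. Against radial glia it called 30 genes (13.3%), and 32 with the block. The intervals given below are exact Clopper-Pearson 95% intervals over both aliquots and cover counting error only.

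The exons that tell the isoforms apart are shown for Pkm, Clta, Cdc42, Myl6 and Srsf3, whose shares were compared in most detail. They are taken from the Gencode M21 transcripts on GRCm38, 5′ to 3′, and capitals mark the 64 bases at which the pair of Pkm exons differ, and the stop codon in Cdc42, Myl6 and Srsf3. The exon of Clta is whole and has no capitals. The Pkm exons lie at chr9:59675029-59675195 (Pkm-202) and chr9:59675568-59675734 (Pkm-201), plus strand, and both are exon 9 of their transcript. The Clta exon 5 lies at chr4:44030215-44030268, plus strand, and is skipped in Clta-206. The last coding stretches of Cdc42 lie at chr4:137322530-137322619 (Cdc42-201) and chr4:137321103-137321192 (Cdc42-202), minus strand, and those of Myl6 at chr10:128491005-128491033 (Myl6-201) and chr10:128491736-128491764 (Myl6-206), minus strand. The coding part of exon 4 of Srsf3-201, at chr17:29039454-29039487, plus strand, ends in an early stop and is absent from Srsf3-202.
Pkm-202 exon 9: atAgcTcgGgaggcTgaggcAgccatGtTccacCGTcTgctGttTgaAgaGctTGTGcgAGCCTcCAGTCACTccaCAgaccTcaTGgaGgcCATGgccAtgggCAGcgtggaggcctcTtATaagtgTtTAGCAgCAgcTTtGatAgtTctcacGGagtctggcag
Pkm-201 exon 9: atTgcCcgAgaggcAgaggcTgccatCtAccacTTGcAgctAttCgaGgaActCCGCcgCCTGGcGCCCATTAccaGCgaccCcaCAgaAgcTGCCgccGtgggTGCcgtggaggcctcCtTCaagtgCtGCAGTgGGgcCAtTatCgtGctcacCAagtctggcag
Clta-204 exon 5: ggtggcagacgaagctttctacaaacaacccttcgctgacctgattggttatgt
Cdc42-201 exon 6: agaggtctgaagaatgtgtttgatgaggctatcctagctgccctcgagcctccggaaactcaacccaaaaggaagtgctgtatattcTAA
Cdc42-202 exon 6: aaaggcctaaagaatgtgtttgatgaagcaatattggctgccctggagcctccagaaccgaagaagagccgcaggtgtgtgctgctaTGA
Myl6-201 exon 6: agcttgtccggatggtgctgaatggcTGA
Myl6-206 exon 6: catttgtgaggcatatcctgtcggggTGA
Srsf3-201 exon 4: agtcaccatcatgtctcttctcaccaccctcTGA

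Pkm encodes pyruvate kinase, the last enzyme of glycolysis, and Pkm-202 carries the M1 exon while Pkm-201 carries the M2 exon. Pkm-202 made up 91.4% and 89.1% of Pkm UMIs in the Fezf2/Crym mature cells of the 190 and 951 cell aliquots (89.6%, 85.8 to 92.7, of 328 UMIs). It made up 84.4% and 81.6% in other mature cells, 67.9% and 65.9% in newborn cells, and 18.8% and 0.98% in radial glia. The Fezf2/Crym mature cells held the highest share in both aliquots, newborn cells an intermediate one and radial glia the lowest. The shift was called against newborn cells (edgeR adjusted p = 0.012) and radial glia (edgeR adjusted p = 1.4e-08), and not against other mature cells.

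Myl6 encodes an essential light chain of non-muscle myosin. Myl6-201 made up 86.8% and 89.3% of its UMIs in these cells (88.7%, 84.5 to 92.0, of 300 UMIs), 73.2% and 84.8% in other mature cells, 34 of 68 UMIs and 62.0% in newborn cells and 23.1% and 44.2% in radial glia. Every class was below the Fezf2/Crym mature cells, with 36.8 and 27.3 points between them and newborn cells (edgeR adjusted p = 0.00023). Srsf3 encodes a splicing factor, and Srsf3-201, annotated as a target of nonsense-mediated decay, is its isoform with the early stop. Srsf3-202, which skips that exon, made up 97.8% and 95.7% here, 92.4% and 92.4% in other mature cells and 83.5% and 88.9% in newborn cells (edgeR adjusted p = 0.0067 against newborn). Its values were highest in the Fezf2/Crym mature cells, by at most 14.3 points against newborn cells.

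**Figure D4:**
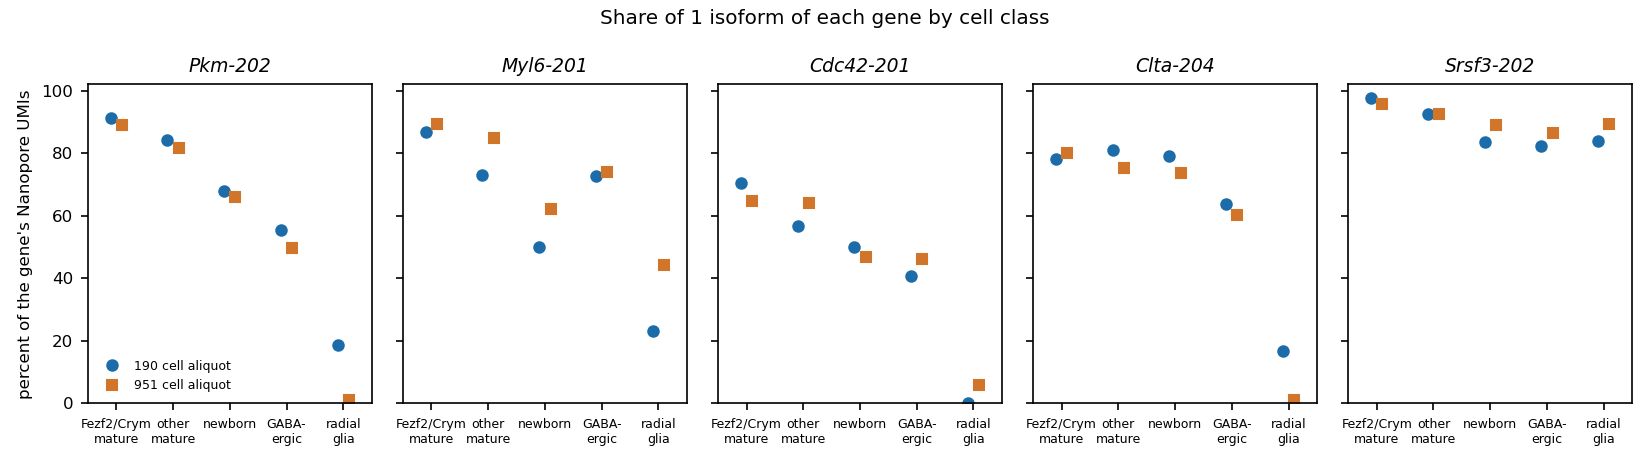
Share of 1 isoform among the Nanopore UMIs of its gene (percent) in the 5 classes, with 1 point for each aliquot. The Fezf2/Crym mature cells have the highest shares of Pkm-202, Myl6-201 and Cdc42-201, and radial glia the lowest of each of these and of Clta-204. Shares of Srsf3-202 lie above 80% in every class.

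Against radial glia, 14 of the 30 called genes had 50 or more Nanopore UMIs on each side and agreed in sign between the aliquots, and the 6 largest changes are named. Clta encodes clathrin light chain A, and Clta-204, with exon 5, made up 78.3% and 80.2% here against 16.7% and 1.12% in radial glia (edgeR adjusted p = 3.6e-08). Cdc42 encodes a small GTPase, and Cdc42-201, with the brain-type last exon, made up 70.6% and 64.8% against 0% and 5.97% (edgeR adjusted p = 2.7e-07). Eef1d, a translation elongation factor subunit, had Eef1d-204 in 61.7% of 60 UMIs here and in 2 of 92 in radial glia. Gpm6b, a proteolipid of neural membranes, had an isoform with 0 of 63 UMIs in these cells and 57.7% of 104 in radial glia. The aliquots differed in the size of that change, which was -12.5 points in the 190 and -61.5 in the 951 cell aliquot. Psap, the saposin precursor, had 11.8% Psap-202 here against 63.0% of 54 UMIs in radial glia. Pkm, described above, had the largest change of the 6. In the other glutamatergic classes Cdc42-201 was at 62.8% and 47.1%, and Clta-204 at 76.1% and 74.4%, and the intervals of Clta-204 overlapped in all 3 (75.0 to 83.9 here). Radial glia hold few UMIs in the 190 cell aliquot, 12 for Clta and 11 for Cdc42.

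The isoforms of the genes that chose these cells were read as a description. Fezf2-201 held 40 of 49 and 145 of 180 Nanopore UMIs (80.8%, 75.1 to 85.7) and Fezf2-203 held 18.4% and 18.9%. Both have the same 1365 coding bases. Fezf2-203 keeps a 348-base intron of Fezf2-201, chr14:12345239-12345586, in its first exon. In newborn cells Fezf2-201 made up 68.8% and 79.6%, overlapping in its interval with the share here. Fezf2 is counted among the 30 genes called against radial glia, but it is a gene of the rule and radial glia hold 8 UMIs of it, all in the 951 cell aliquot, so no test of it is given. Crym-201 held 97.5% and 96.3% of the Crym UMIs. Mef2c was split between Mef2c-213 (43.2% and 39.1%) and Mef2c-222 (45.9% and 50.4%), and Sla-202 made up 90.9% and 87.8%. Nefl, Nefm, Neurod2, Neurod6 and Nts were each read as 1 isoform. Nanopore saw less of some genes. Nrp2 had 70 Illumina UMIs and 0 Nanopore UMIs in these cells, Bcl11b 289 and 30, Slit3 26 and 4, and Cpne4 11 and 2, so their isoforms could not be described.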

How the data were processed

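The samples were 2 Illumina and 2 Nanopore libraries of 2 aliquots of 1 emulsion. The deposited Illumina counts are UMIs per gene from Cell Ranger 2.0 on mm10 (GRCm38), and the deposited Nanopore counts are UMIs per Gencode vM18 isoform that the authors assigned to the Illumina barcodes. Depth was 1837100 and 8463416 Illumina UMIs over all barcodes. Cells with at least 1400 genes were kept and classified by rules on UMI counts, of which those for GABAergic cells and radial glia are not given here. The members and gene lists were chosen with earlier results of these data known. UMIs were summed per aliquot and class (10 sums) and fitted in 1 model with edgeR 4.0.16 in R 4.3.3 (TMM, filterByExpr, robust quasi-likelihood F test, Benjamini-Hochberg). The 26 genes read by a class rule were left out, and standard errors are the fold change over the square root of F. Isoform shares were tested with diffSpliceDGE (minimum count 10). Scripts were tested on simulated data. Deviations of the same aliquot from the class means correlated at 0.129 to 0.376 (median 0.317) over 10 pairs of classes, so the aliquot was also used as a block, because the labels tie each number to 1 aliquot. Named genes were those of the lists that were called, the most abundant of each list, and the 12 largest rises and falls with at least 50 CPM, and for isoforms the 6 largest changes with at least 50 UMIs. Exon coordinates and gene positions come from Gencode M21 (98.7% of genes matched). DESeq2 1.42.0, no filter on low counts, the aliquot block, the compared classes alone, thinning, other cuts, doublet removal and leaving out each aliquot were tried. Leaving out cells with a shared barcode was chosen after seeing the data. Some genes of the lists are not reported here and were left out of the list counts and medians.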

Additional observations from a re-analysis of the deposited data

How the results depend on the processing

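None of the 40 and 187 called genes, nor the isoform shifts against newborn cells and the 6 named against radial glia, changed direction under the alternatives that gave it a value. Some genes could not be fitted after thinning or with the compared classes alone. Of the other called isoform genes against radial glia, Dnaja1 differed by -13.7 points over both aliquots and by 0.85 without the 951 cell aliquot. For the comparison with other mature cells, DESeq2 called 10 genes higher and 10 lower, fitting without a filter on low counts called 37 higher and 23 lower, the aliquot block called 68 and 55, and thinning to 5000 UMIs called 3 and 5. For newborn cells DESeq2 called 39 and 32, the block 243 and 226, and thinning 29 and 33. Isoform genes against newborn cells numbered 0 without the filter, 10 with the block and 9 with the compared classes alone, and against radial glia 18 with Simes adjustment and 15 with the compared classes alone, where the cause was not tested. Without thinning, Bcl11b was seen in 71.9% of the cells, Sox5 in 78.1%, Tbr1 in 57.8% and Nrp2 in 23.4%, and thinned to 3000 UMIs Bcl11b was seen in 43.8% and Tbr1 in 18.8%. Applied after thinning to 5000 UMIs, the rule took 29 cells.

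Under the block all 40 and all 187 genes stayed called, as did 29 of the 30 isoform genes against radial glia, and genes were added as given beside the counts. Of the 40 genes, 17 kept their call with DESeq2 and 8 after thinning, which tests fewer molecules, and 35 without cells of shared barcodes. Leaving out 1 aliquot leaves no residual degrees of freedom, so it gave values with no test. It moved the fold change of 9 of the 40 and 59 of the 187 genes by over 1.5 times. Isoform shifts changed in size too. Against radial glia, Clta was 61.6 points without the 951 cell aliquot and 76.7 over both, and Eef1d was 47.6 and 59.5. Gpm6b was -12.5 and -57.7, Pkm-201 -72.7 and -87.4, Cdc42 70.6 and 60.9, and Psap -50.0 and -51.2. Against newborn cells Myl6 was 36.8 and 28.2, Srsf3 14.3 and 7.94, and Pkm-202 23.5 and 23.4. Without the 190 cell aliquot the log2 fold change was 1.30 for Xpr1 against other mature cells, and 4.23 for Gucy1a3, 1.29 for S100a10, -1.70 for Cacng2, -2.66 for Negr1 and 2.31 for Thy1 against newborn cells. Without the 951 cell aliquot it was 2.86 for Xpr1, -2.35 for Ptn, 0.61 for Sh3gl2, -0.66 for Hs6st2, 1.33 for St6galnac5, 0.85 for Ndrg2 and -1.05 for Tcf12 against other mature cells, and 2.70 for Sybu, -1.62 for Pax6, -3.70 for Zbtb20, 1.60 for Scn2a1, 3.44 for Gucy1a3, 3.49 for S100a10, 1.75 for Rorb, 2.61 for Tox, 1.17 for Camkv, -2.06 for Cdh4, -1.15 for Lhx2, 1.93 for Npy, 1.64 for Tenm3 and 2.52 for Thy1 against newborn cells. A block and DESeq2 were not run for Fezf2-only against Crym-only cells, because 1 and 3 cells with Crym alone give values only. The sum of the 64 cells in the 190 cell aliquot rests on 13 cells, which limits genes of few UMIs.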
